A study of Mus musculus with 8 samples.

Results

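The circadian clock genes Dbp, Tef, Per1, Per2, Per3, Nr1d1, Nr1d2, Ciart, Arntl and Npas2 were followed in RNA-seq of whole mouse lungs. They were chosen by name rather than by their values, though with earlier results of these data known. They are 10 of the 54532 genes in the count table. All mice were CC-LR mice, a model of lung adenocarcinoma in which the gene of the club cell secretory protein drives Cre and Cre switches on a K-rasG12D allele. Mutant K-ras is thereby expressed in the lung epithelium, while the libraries hold RNA of the entire lung. The control group was 4 CC-LR mice, and the other group was 4 CC-LR mice that received TTI-101, a small-molecule inhibitor of the transcription factor STAT3, for 4 weeks. Both groups were 14 weeks old, and each mouse gave 1 library. The hour of harvest, the lighting schedule, the vehicle and how TTI-101 was delivered to these mice are not given in the sources used here. If the groups were collected at different hours, hour and treatment cannot be told apart.

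The mammalian clock is a feedback loop that runs in nearly every cell. BMAL1, the protein of Arntl, pairs with CLOCK or with NPAS2 and binds E-box DNA to turn on the Per genes, Nr1d1, Nr1d2, Ciart, Dbp and Tef. PER proteins, together with CRY proteins, then repress BMAL1 and CLOCK. REV-ERBα and REV-ERBβ, the proteins of Nr1d1 and Nr1d2, repress Arntl and Npas2, while ROR proteins act on the same sites as activators. In nocturnal mice kept in light and dark, peripheral tissues such as the lung carry the most Arntl and Npas2 mRNA around dawn and the least around dusk, and the E-box driven genes run in near antiphase, with Nr1d1 peaking ahead of Per2. Here Arntl and Npas2 are called morning-phase genes and the 8 others evening-phase genes. In a whole organ, fewer cells of a type and less RNA per cell cannot be told apart.

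Short stretches of the promoters are shown because the loop acts through letters that can be read in them. RefSeq promoter windows of GRCm38.p6, from 250 bases before to 50 bases after a transcription start, were found for 9 of the 10 genes, in 12 windows, and Per2 had no entry. Both strands were searched for the E-box CACGTG, bound by BMAL1 with CLOCK, the variant E-box CACGTT, the D-box TTATGTAA or TTACGTAA, bound by the DBP and TEF proteins, and the core TAGGTCA or TGGGTCA of the ROR element, bound by REV-ERB and ROR proteins. No searched motif overlapped another. The lines below run 5′ to 3′ on the strand of the gene, with the matched letters in capitals.
Ciart, chr3:95882256-95882311, minus strand: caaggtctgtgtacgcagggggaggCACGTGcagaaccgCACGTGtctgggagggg
Per1, chr11:69098758-69098813, plus strand: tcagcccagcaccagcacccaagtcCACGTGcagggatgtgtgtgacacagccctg
Tef, chr15:81811251-81811306, plus strand: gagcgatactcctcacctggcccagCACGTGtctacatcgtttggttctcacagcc
Nr1d1, chr11:98775378-98775430, minus strand: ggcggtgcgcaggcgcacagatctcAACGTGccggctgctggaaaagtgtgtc
Per3, chr4:151044838-151044895, minus strand: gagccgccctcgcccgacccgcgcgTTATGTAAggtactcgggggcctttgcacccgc
Arntl, chr7:113207530-113207559, plus strand: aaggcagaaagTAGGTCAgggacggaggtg

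The E-box CACGTG stood in windows of 3 of the 9 genes, Ciart, Per1 and Tef, against 8.09% of all 27025 genes and 7.15% of all 32851 windows. In Ciart, the copies shown begin at -58 and -44 from the start, and another copy lies at -116. The variant E-box stood only in Nr1d1 among the 9 genes, at -28 and written as AACGTG on the strand of the gene, against 5.44% of all genes and 4.68% of all windows. The D-box stood only in Per3, in copies at -205 and -158, against 1.23% of all genes and 1.06% of all windows, and the ROR element core only in Arntl, at 31 after the start and inside an Arntl exon, against 7.35% of all genes and 6.45% of all windows. The windows of Dbp, Nr1d2 and Npas2 held none of these letters. A match describes the letters in a window and is not a measured binding site.

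Total counts ranged from 16446481 to 26873509 in control libraries and from 16075855 to 25920509 in TTI-101 libraries. Expression is given as CPM, counts relative to library size after TMM scaling. All 10 genes passed edgeR's filter on low counts, which kept 17138 genes. Control mouse 4 stood apart from the other 7 libraries on the first principal component, at 101 against -39.3 to 17.9, and 5.56% of its counts were mitochondrial, against 2.01% to 2.85% in the others. Lung epithelial and endothelial marker genes were all detected.

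No clock gene passed an adjusted p of 0.05 between TTI-101 and control lungs. By edgeR's quasi-likelihood test, adjusted over all genes tested, the count was 0 of 10 for these genes and 0% for all genes. At an unadjusted p under 0.05, 3 of the 10 genes were lower in TTI-101 lungs, Dbp, Per2 and Per3, where 3.58% of all genes were lower, and 0 of 10 were higher, where 3.02% of all genes were higher. The share of all genes at this p in either direction was 6.61%. DESeq2 and limma-voom also gave 0 clock genes at an adjusted p under 0.05, and 4 and 0 of all genes. The count of 3 was 1 without control 3, 5 without control 1 and 4 without control 4 or TTI-101 mouse 1. It was 2 without TTI-101 mouse 2, 3 or 4. The count of all genes at this p, 1132, moved as well, to 824, 2393, 531, 711, 2498, 422 and 758 in the order named. With the level of Arntl as a covariate, an alternative chosen after seeing the data, the count was 0 of 9 genes and 456 of all genes. Arntl is itself a clock gene of this set, so that fit cannot separate the others from it, and no conclusion is drawn. The CPM of the groups overlapped for all 10 clock genes, and 2.96% of all genes had groups that did not overlap. The median log2 fold change, TTI-101 minus control, was -0.62 over the 8 evening-phase genes, 0.62 over the 2 morning-phase genes and 0.00 over all genes tested.

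**Figure D1:**
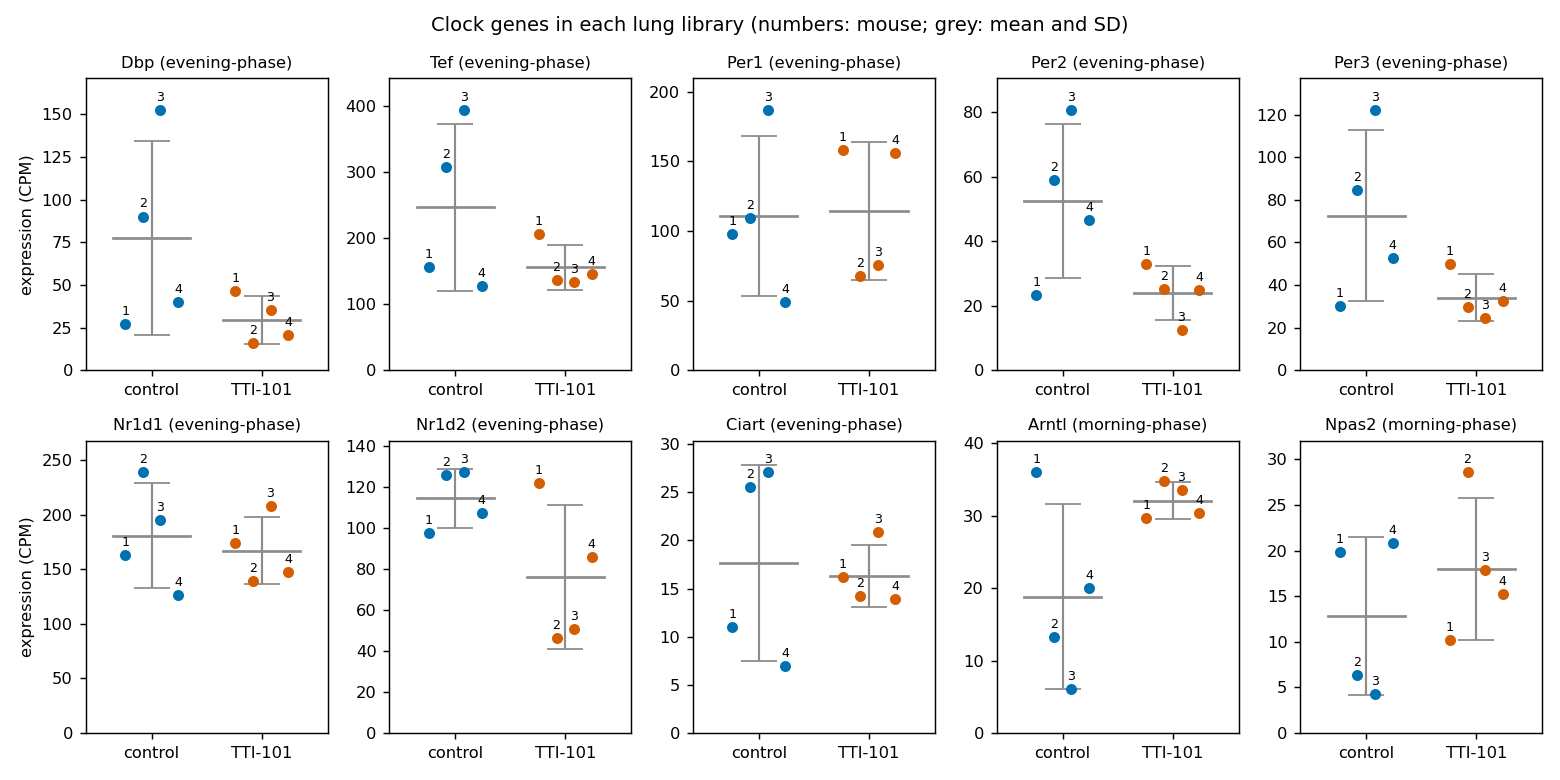
Expression of the 10 clock genes in CPM (vertical axes, linear, from 0) in each of the 4 control and 4 TTI-101 libraries, with the mouse number at each point and the mean and SD in grey. Controls 2 and 3 are the highest libraries for 6 of the 8 evening-phase genes and the lowest for both morning-phase genes, and the groups overlap in every panel.

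Dbp (ENSMUSG00000059824, chromosome 7 of GRCm38, 45705088 to 45710203, plus strand) encodes a PAR bZIP transcription factor that carries the clock's rhythm to target genes through D-boxes. It was at 27.3, 90.1, 153 and 39.7 CPM in controls 1 to 4 and at 46.6, 16.2, 35.02 and 20.5 CPM in TTI-101 mice 1 to 4. Controls 2 and 3 were above every other library, while control 1 was below TTI-101 mice 1 and 3. The mean was 77.5 ± 57.1 CPM in control and 29.6 ± 13.9 CPM in TTI-101 lungs (SD, n = 4 each), and the log2 fold change of -1.39 had an SE of 0.52 (edgeR, unadjusted p = 0.0222, adjusted p = 0.657). Without control 3 the log2 fold change was -0.82 (unadjusted p = 0.101), and without control 4 it was -1.59 (unadjusted p = 0.0106). It was -1.17 without TTI-101 mouse 2 and -1.25 without TTI-101 mouse 4 (unadjusted p = 0.0545 and 0.0613). Of the gene, 737 bases are shared with Sphk2 on the opposite strand, which had 727 to 1427 counts per library against 269 to 2754 for Dbp, and the strand setting of the counting is not given in the sources used here.

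Tef (ENSMUSG00000022389, chromosome 15, 81802421 to 81826863, plus strand) encodes a second PAR bZIP factor, which binds the same D-boxes. It was at 156, 307, 394 and 128 CPM in controls 1 to 4 and at 206, 137, 134 and 146 CPM in TTI-101 mice 1 to 4. Again controls 2 and 3 were the highest of all 8 libraries, control 1 lay among the treated mice and control 4 below them all. The log2 fold change was -0.66 with an SE of 0.33 (edgeR, unadjusted p = 0.0741, adjusted p = 0.657). Without control 4, where Tef was lowest, it was -0.86 (unadjusted p = 0.0125), and without control 1 it was -0.83 (unadjusted p = 0.0317).

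Per2 (ENSMUSG00000055866, chromosome 1, 91415982 to 91459324, minus strand) encodes a core repressor of the loop. It was at 23.4, 59.1, 80.8 and 46.6 CPM in controls 1 to 4 and at 33.0, 25.1, 12.5 and 24.996 CPM in TTI-101 mice 1 to 4. Controls 2, 3 and 4 lay above every treated mouse and control 1 lay among them. The mean was 52.5 ± 23.99 CPM in control and 23.9 ± 8.46 CPM in TTI-101 lungs (SD, n = 4 each), and the log2 fold change of -1.13 had an SE of 0.37 (edgeR, unadjusted p = 0.0116, adjusted p = 0.657). Per2 stayed under an unadjusted p of 0.05 with each library left out in turn, with log2 fold changes from -0.85 without control 3 to -1.38 without control 1.

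Per3 (ENSMUSG00000028957, chromosome 4, 151003652 to 151044665, minus strand) encodes a PER protein whose loss disturbs the central rhythm less than that of its relatives. It was at 29.9, 84.7, 122 and 52.8 CPM in controls 1 to 4 and at 49.7, 29.8, 24.3 and 32.4 CPM in TTI-101 mice 1 to 4. Its order of controls was that of Per2, with 3 highest, then 2, 4 and 1, and controls 2, 3 and 4 exceeded all treated mice. The log2 fold change was -1.09 with an SE of 0.38 (edgeR, unadjusted p = 0.0173, adjusted p = 0.657), and it was -0.71 without control 3 (unadjusted p = 0.0692) and -0.95 without TTI-101 mouse 3 (unadjusted p = 0.0531). The gene lies within the span of Camta1 on the same strand, and how reads shared by these genes were counted is not given in the sources used here.

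Per1 (ENSMUSG00000020893, chromosome 11, 69095217 to 69109960, plus strand) encodes a PER repressor whose gene also responds quickly to glucocorticoids and to signals through cAMP. It was at 98.0, 109, 187 and 48.7 CPM in controls 1 to 4 and at 158, 67.9, 75.5 and 156 CPM in TTI-101 mice 1 to 4. TTI-101 mice 1 and 4 lay above all controls but control 3, so Per1 did not follow the order of Per2 and Per3. The means were 111 ± 57.3 and 114 ± 49.4 CPM (SD, n = 4 each), and the log2 fold change was 0.05 with an SE of 0.40 (edgeR, adjusted p = 0.980), with -0.18 when control 4 was left out.

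Nr1d1 (ENSMUSG00000020889, chromosome 11, 98767932 to 98775333, minus strand) encodes REV-ERBα. It was at 163, 239, 196 and 126 CPM in controls 1 to 4 and at 174, 139, 208 and 148 CPM in TTI-101 mice 1 to 4, so that the treated range lay within that of the controls. From the lowest to the highest library it spanned 1.89-fold, the narrowest of the 10 genes. The log2 fold change was -0.11 with an SE of 0.21 (edgeR, adjusted p = 0.880). Its last 1075 bases are shared with Thra on the opposite strand, which had 1268 to 3304 counts per library.

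Nr1d2 (ENSMUSG00000021775, chromosome 14, 18204054 to 18239127, minus strand) encodes REV-ERBβ. It was at 97.7, 126, 127 and 107 CPM in controls 1 to 4 and at 122, 46.3, 50.8 and 85.6 CPM in TTI-101 mice 1 to 4. TTI-101 mice 2, 3 and 4 were below every control, while TTI-101 mouse 1 lay inside the control range. The means were 115 ± 14.4 and 76.2 ± 35.2 CPM (SD, n = 4 each), and the log2 fold change of -0.59 had an SE of 0.28 (edgeR, unadjusted p = 0.0629, adjusted p = 0.657). Without TTI-101 mouse 1 it was -0.91 (unadjusted p = 0.0033).

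Ciart (ENSMUSG00000038550, chromosome 3, 95878503 to 95882251, minus strand) encodes CHRONO, a repressor that binds BMAL1. It was at 11.04, 25.6, 27.1 and 6.97 CPM in controls 1 to 4 and at 16.2, 14.2, 20.9 and 13.9 CPM in TTI-101 mice 1 to 4. All treated mice lay between the low pair of controls, 1 and 4, and the high pair, 2 and 3. The log2 fold change was -0.11 with an SE of 0.39 (edgeR, adjusted p = 0.944), smaller than the spread between mice. An antisense gene, C920021L13Rik, with 38 to 241 counts per library, covers all 3749 bases of Ciart, so without a known strand setting reads of the 2 genes cannot be told apart.

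Arntl (ENSMUSG00000055116, chromosome 7, 113207465 to 113314126, plus strand), the gene of BMAL1, ran the other way. It was at 36.0, 13.3, 6.05 and 20.0 CPM in controls 1 to 4 and at 29.7, 34.8, 33.6 and 30.3 CPM in TTI-101 mice 1 to 4. The treated mice lay within 1.17-fold of each other, whereas the controls spanned 5.95-fold and included both the lowest and the highest library. The means were 18.8 ± 12.8 and 32.1 ± 2.49 CPM (SD, n = 4 each), and the log2 fold change of 0.76 had an SE of 0.41 (edgeR, unadjusted p = 0.0930, adjusted p = 0.657). Without control 1, the highest library, it was 1.29 (unadjusted p = 0.0032).

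Npas2 (ENSMUSG00000026077, chromosome 1, 39193731 to 39363236, plus strand), whose protein can stand in for CLOCK, was at 19.8, 6.40, 4.27 and 20.8 CPM in controls 1 to 4 and at 10.2, 28.6, 17.9 and 15.2 CPM in TTI-101 mice 1 to 4. Controls 2 and 3 were again at the bottom, and TTI-101 mouse 1, the treated mouse with the most Dbp, Tef, Per2, Per3 and Nr1d2, had the least Npas2 of its group. The log2 fold change was 0.48 with an SE of 0.50 (edgeR, unadjusted p = 0.352, adjusted p = 0.773).

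Variation among mice of the same group was wide for most of these genes. Their SD of log2 CPM within groups was above the median of all genes tested for 9 of 10 genes, Nr1d1 being the exception, and above the 75th percentile for 8 of 10. Dbp stood at the 95.1 percentile and Npas2 at the 94.8 percentile. Between the lowest and the highest of the 8 libraries, Dbp differed 9.46-fold, Npas2 6.69-fold, Per2 6.46-fold and Arntl 5.95-fold. The range on the log2 scale was wider among controls than among TTI-101 mice for 9 of 10 genes, and Nr1d2 was the exception, with a 1.30-fold span in control and a 2.63-fold span in TTI-101 lungs. This difference in spread was not tested.

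Levels between genes were compared as CPM per kilobase of the gene length in the count table. In control lungs the order was Nr1d1 (58.8 ± 15.6, SD, n = 4), Tef (31.3 ± 16.0), Dbp (25.9 ± 19.1), Nr1d2 (21.2 ± 2.66), Per1 (19.7 ± 10.2), Per2 (8.96 ± 4.10), Ciart (7.81 ± 4.49), Per3 (7.54 ± 4.17), Npas2 (2.68 ± 1.81) and Arntl (2.50 ± 1.70). Neighbours in this order differed by less than the larger of their SDs, except Nr1d1 from Tef, Per1 from Per2 and Per3 from Npas2. In TTI-101 lungs Nr1d1 was again highest, at 54.3 ± 10.0 CPM per kilobase, followed by Per1 at 20.3 ± 8.78 and Tef at 19.8 ± 4.31. Arntl, lowest in control, was at 4.27 ± 0.33 CPM per kilobase in TTI-101 lungs, above the mean of Per3 there, which was 3.54 ± 1.14.

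To compare the phases within each library, the mean log2 CPM of the 2 morning-phase genes was subtracted from that of the 8 evening-phase genes. This phase difference compares genes within a library, so library scaling hardly enters it, and it is a description with no test. It was 0.95, 3.45, 4.63 and 1.36 in controls 1 to 4 and 2.07, 0.42, 0.94 and 1.31 in TTI-101 mice 1 to 4. Controls 2 and 3 therefore stood toward the evening end of the 8 libraries, TTI-101 mouse 1 came next, control 4 lay just above the remaining treated mice, and control 1 lay among them. The mean was 2.60 ± 1.74 in control and 1.19 ± 0.69 in TTI-101 lungs (SD, n = 4 each), a difference of -1.41 on the log2 scale. It was -0.74 without control 3 and -1.83 without control 4.

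**Figure D2:**
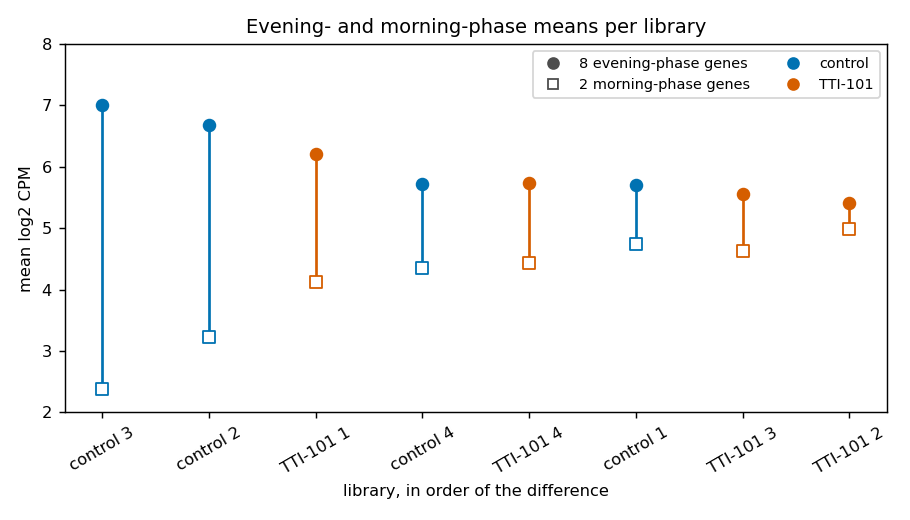
Mean log2 CPM of the 8 evening-phase genes (filled circles) and the 2 morning-phase genes (open squares) in each library, ordered by the length of the line that joins them. The line is 4.63 long in control 3 and 3.45 in control 2, and at most 2.07 in the other 6 libraries, which hold both groups.

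Controls 3 and 2 also stood highest, and TTI-101 mouse 2 lowest, in a ratio of raw counts, without any scaling, while the other 5 libraries were ordered differently. The ratio of Dbp counts to Arntl counts was 0.759, 6.79, 25.3 and 1.98 in controls 1 to 4 and 1.57, 0.464, 1.04 and 0.675 in TTI-101 mice 1 to 4. The control group alone thus spanned both the highest ratio and a ratio below those of TTI-101 mice 1 and 3. On the phase difference, the controls spanned 3.68, wider than the difference between the group means.

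Each clock gene was next related to Arntl across the 8 libraries, on log2 CPM, by Pearson's r and Spearman's rho with two-sided exact permutation tests over all 40320 pairings and Benjamini-Hochberg adjustment over the 9 relations. The relation was negative for all 8 evening-phase genes and positive for Npas2, and 5 of 9 passed an adjusted p of 0.05 by r. Relations to Arntl were not computed for genes outside this set. The share of all genes that would pass is therefore not known, and 5 of 9 is not read as particular to clock genes. Per3 was the closest, with r = -0.94 (exact permutation p = 0.000298, adjusted p = 0.0027) and rho = -0.90 (exact adjusted p = 0.0321). Dbp followed with r = -0.91 (exact permutation p = 0.0028, adjusted p = 0.0084) and rho = -0.86 (exact adjusted p = 0.0321), and Per2 had r = -0.87 (exact permutation p = 0.000794, adjusted p = 0.0036) and rho = -0.88 (exact adjusted p = 0.0321). Tef had r = -0.86 (exact permutation p = 0.0163, adjusted p = 0.0294) but rho = -0.48 (exact adjusted p = 0.301). Npas2, which REV-ERB proteins repress like Arntl, had r = 0.85 (exact permutation p = 0.0094, adjusted p = 0.0211) and rho = 0.71 (exact adjusted p = 0.104).

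Nr1d2 was ordered against Arntl by rank, with rho = -0.83 (exact permutation p = 0.0154, adjusted p = 0.0346), but not by r, which was -0.60 (exact permutation p = 0.0743, adjusted p = 0.111). Per1, Nr1d1 and Ciart had r of -0.39, -0.41 and -0.51, with exact adjusted p-values of 0.347, 0.347 and 0.268, and rho of -0.45, -0.33 and -0.52, with exact adjusted p-values of 0.301, 0.428 and 0.295. The genes were chosen for their place in the same loop, so these relations are not independent of each other.

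Most of these relations rested on controls 2 and 3, the libraries farthest from the median of Arntl. Without them, over 6 libraries, r was -0.79 for Per3 (exact permutation p = 0.0194, unadjusted, where the smallest possible is 0.0028), -0.74 for Per2 (exact permutation p = 0.131), -0.49 for Dbp (exact permutation p = 0.357), 0.22 for Tef (exact permutation p = 0.606) and 0.09 for Npas2 (exact permutation p = 0.810). These p-values were not adjusted over the 9 relations, so none of them, that of Per3 included, is a pass at the adjusted threshold used above. The relations of Dbp, Per2, Tef and Npas2 to Arntl were above 0.05 even unadjusted. Without these mice r turned positive for 4 of the 8 evening-phase genes, for Tef and also for Ciart (0.71, exact permutation p = 0.151), Nr1d1 (0.56, exact permutation p = 0.257) and Per1 (0.40, exact permutation p = 0.478). With group means removed, r was -0.91 for Per3, -0.85 for Dbp, -0.79 for Per2, -0.82 for Tef and 0.84 for Npas2. Permuting the remaining deviations across both groups put 5 of 9 relations under an adjusted p of 0.05. Such deviations are not freely exchangeable between groups, so this permutation p is not exact and no conclusion is drawn from it. With 4 libraries each, the groups were too small for r within a group.

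**Figure D3:**
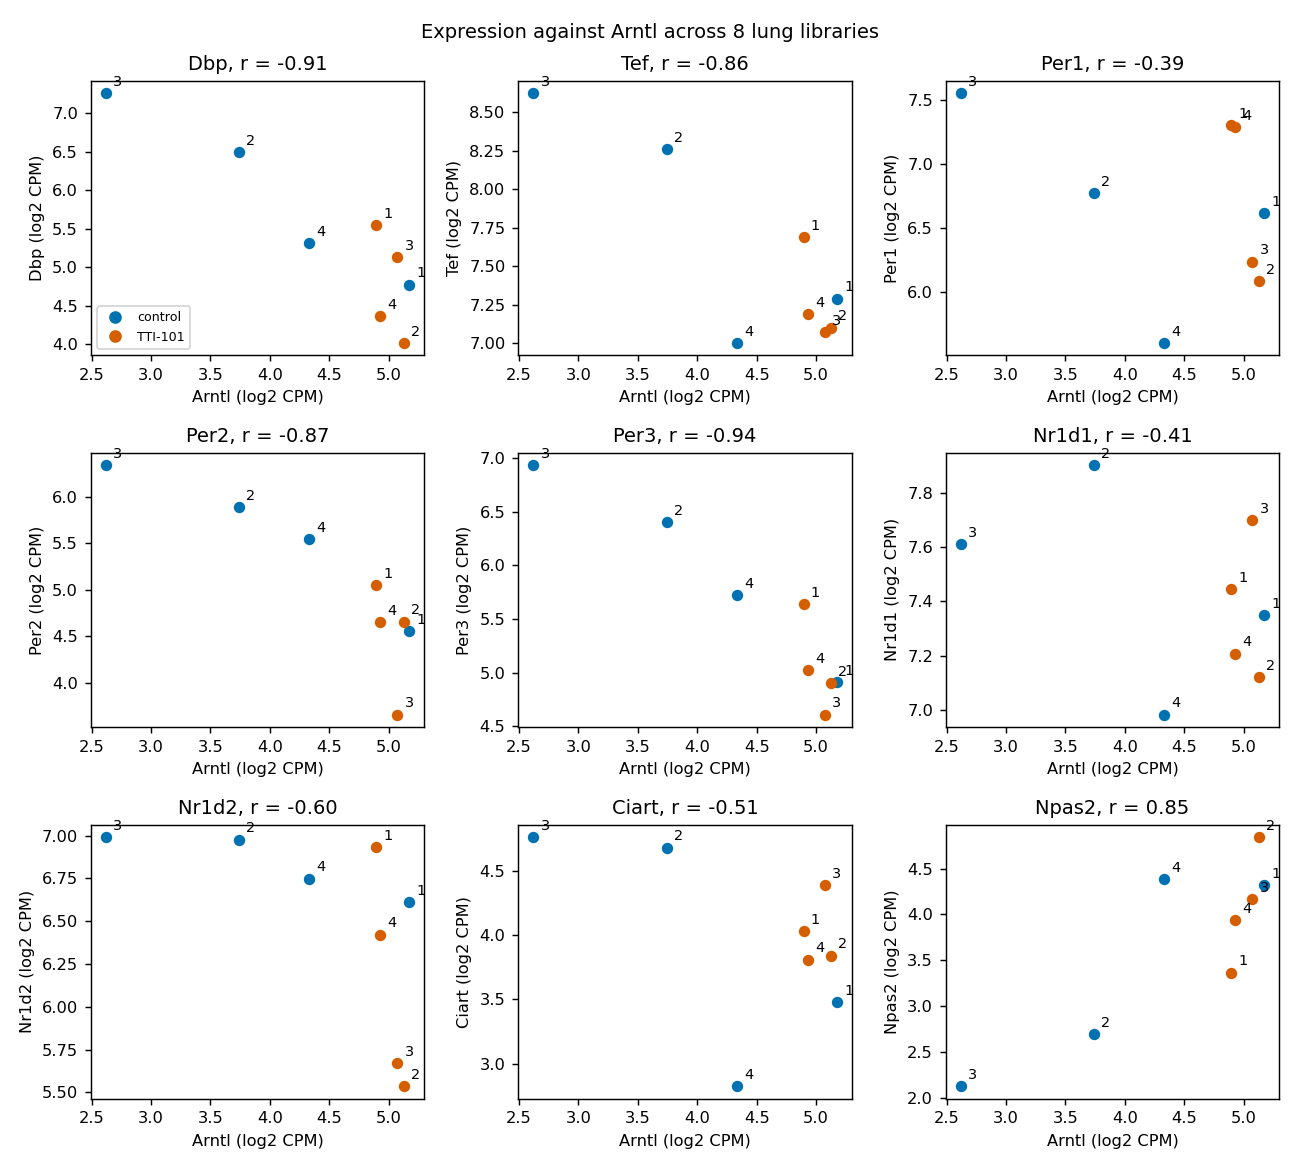
Log2 CPM of each of the 9 other clock genes (vertical axes) against that of Arntl (horizontal axes) in 4 control and 4 TTI-101 libraries, with the mouse number at each point. Controls 2 and 3 lie far left, with the least Arntl. Among the other 6 libraries r is -0.79 for Per3 (-0.94 over all 8) and 0.09 for Npas2 (0.85 over all 8), with no adjusted test.

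Of 19 further clock genes and modifiers, 18 could be tested, with a median log2 fold change of -0.05. At an unadjusted p under 0.05, 0 were higher and 2 lower, against 3.02% and 3.58% of all genes. Rorb, with at most 8 counts in a library, was below the filter. The pair that was lower encodes the basic helix-loop-helix repressors DEC1 and DEC2, which compete for E-boxes. Bhlhe40, the gene of DEC1, was at 102, 78.4, 83.0 and 154 CPM in controls 1 to 4 and at 73.8, 87.2, 66.4 and 55.7 CPM in TTI-101 mice 1 to 4, and the log2 fold change of -0.56 had an SE of 0.23 (edgeR, unadjusted p = 0.0323, adjusted p = 0.657). Control 4, the library that stood apart, held the highest value, and TTI-101 mouse 2 was above controls 2 and 3. Bhlhe41, the gene of DEC2, was at 17.8, 20.7, 29.3 and 15.2 CPM in controls 1 to 4 and at 14.2, 15.3, 15.9 and 12.04 CPM in TTI-101 mice 1 to 4, and the log2 fold change of -0.53 had an SE of 0.22 (edgeR, unadjusted p = 0.0351, adjusted p = 0.657). Without control 4, 1 of the 18 genes was lower at an unadjusted p under 0.05. In that setting 531 of 17548 genes passed in either direction, against 1132 of 17138 with all libraries.

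The other core genes differed by less than the spread between mice. Clock, the partner of BMAL1, was at 65.3 ± 14.3 CPM in control and 70.6 ± 12.4 CPM in TTI-101 lungs (log2 fold change 0.11). Cry1, which peaks later than the Per genes, was at 15.8 ± 1.10 and 15.7 ± 0.836 CPM (log2 fold change 0.00), and Cry2 had a log2 fold change of -0.09. Rora, which encodes an activator at ROR elements, had a log2 fold change of 0.09, and Arntl2, a relative of Arntl, one of -0.14. Hlf, the third PAR bZIP gene, was at 17.8 ± 10.8 and 14.7 ± 5.95 CPM (log2 fold change -0.27, SE 0.47). Adjusted p-values from edgeR's quasi-likelihood test were above 0.05 for all of them.

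Nfil3 encodes E4BP4, a repressor that opposes DBP, TEF and HLF at D-boxes. It was at 17.1, 10.0, 7.93 and 22.8 CPM in controls 1 to 4 and at 11.3, 28.5, 18.6 and 16.3 CPM in TTI-101 mice 1 to 4. Like Arntl and Npas2, it was lowest in controls 3 and 2, and like Npas2 alone it was next lowest in TTI-101 mouse 1 and highest in TTI-101 mouse 2. Its log2 fold change between groups was 0.37 with an SE of 0.36 (edgeR, adjusted p = 0.761).

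The median log2 fold change of 5 clock output genes was -0.33. At an unadjusted p under 0.05, 1 was lower and 0 were higher, against 3.58% and 3.02% of all genes. The lower gene was Wee1, a kinase gene of the cell cycle that the clock drives through E-boxes. It was at 19.0, 21.1, 23.7 and 29.5 CPM in controls 1 to 4 and at 18.0, 11.5, 11.1 and 11.1 CPM in TTI-101 mice 1 to 4. All treated mice lay below all controls, by a narrow margin for TTI-101 mouse 1. Groups did not overlap, in either direction, for 2.96% of all genes. The log2 fold change of Wee1 was -0.85 with an SE of 0.22 (edgeR, unadjusted p = 0.0028, adjusted p = 0.657).

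**Figure D4:**
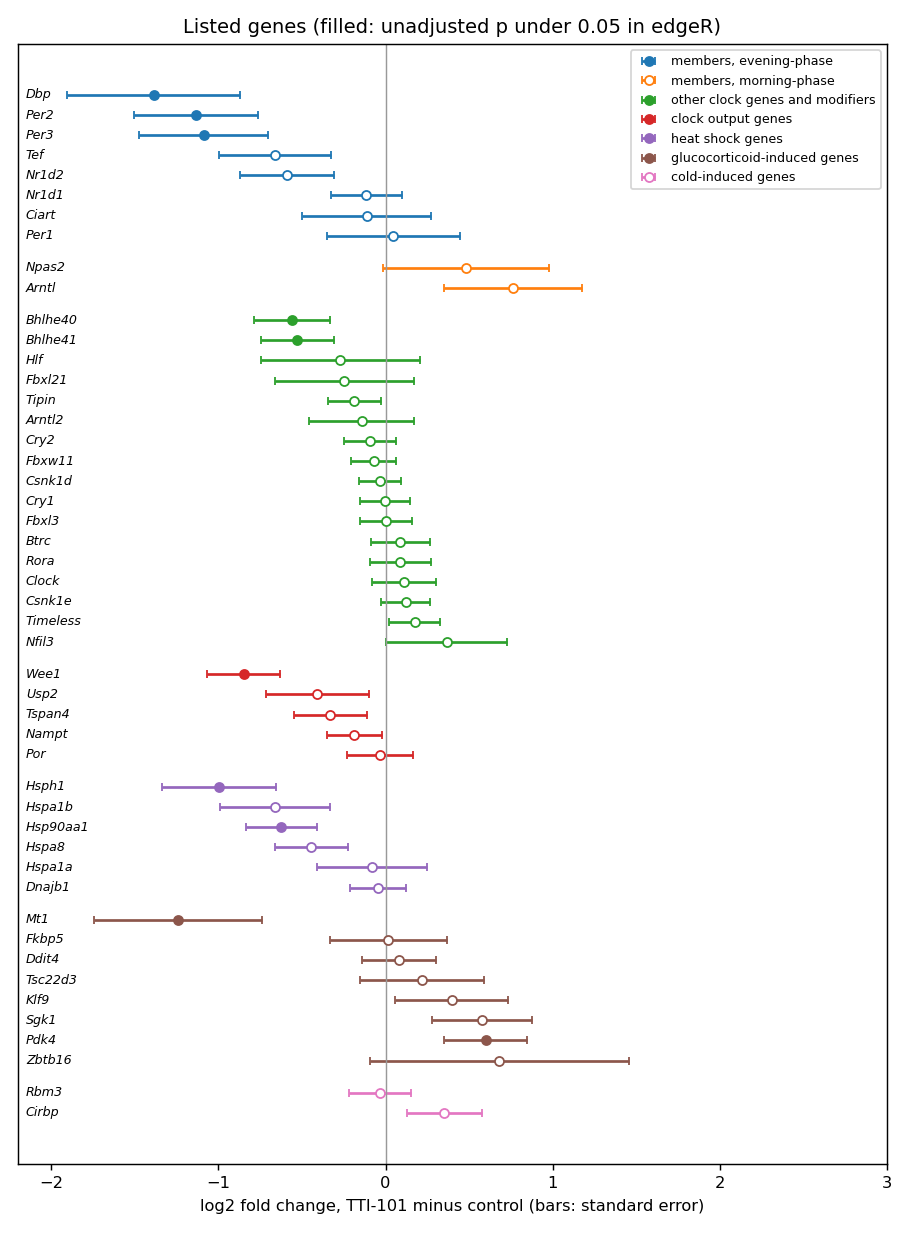
Log2 fold change, TTI-101 minus control, with its standard error (horizontal axis), of the 10 clock genes and the genes of the related lists, in rows grouped and coloured by list. Filled points have an unadjusted p under 0.05 and none has an adjusted p under 0.05, and the largest negative value, -1.39, is that of Dbp.

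Gene groups that can shift with stress, temperature or glucocorticoids were read beside the clock genes. Of 6 heat shock genes, 2 were lower and 0 higher at an unadjusted p under 0.05, against 3.58% and 3.02% of all genes. The median log2 fold change of the 6 was -0.53. Hsph1, a chaperone gene, was at 55.1, 153, 202 and 120 CPM in controls 1 to 4 and at 68.9, 73.0, 43.5 and 80.3 CPM in TTI-101 mice 1 to 4 (log2 fold change -0.996, SE 0.34, unadjusted p = 0.0148 from edgeR). Hsp90aa1, another chaperone gene, was at 428, 644, 853 and 669 CPM and at 477, 376, 371 and 462 CPM (log2 fold change -0.62, SE 0.21, unadjusted p = 0.0152 from edgeR), and its highest library was also control 3. Their adjusted p was 0.657 for both genes. Of the 2 cold-induced genes, Cirbp and Rbm3, 0 passed an unadjusted p of 0.05 in either direction.

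Of 9 glucocorticoid-induced genes, 8 could be tested. At an unadjusted p under 0.05, 1 was higher and 1 lower, against 3.02% and 3.58% of all genes. Pdk4, a kinase gene that restrains glucose oxidation, was at 16.0 ± 3.95 CPM in control and 24.2 ± 7.80 CPM in TTI-101 lungs (log2 fold change 0.60, unadjusted p = 0.0353 from edgeR). Mt1, a metallothionein gene, was at 169 ± 108 and 71.6 ± 45.5 CPM (log2 fold change -1.24, unadjusted p = 0.0318 from edgeR). Without control 4, 0 of the 8 genes passed in either direction. The count of all genes passing also fell then, from 1132 of 17138 to 531 of 17548. The part of these groups in the clock gene values was not tested.

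Markers of other cells and tissues were read as well, and 0 of them passed an adjusted p of 0.05 in edgeR. At an unadjusted p under 0.05, 3.02% of all genes were higher and 3.58% lower. The summed CPM of 5 red cell genes was 58.0 to 264 in control and 205 to 1586 in TTI-101 libraries, with 4 of 5 genes higher at an unadjusted p under 0.05, and that of 4 B cell genes was 57.1 to 192 and 180 to 377, with 4 of 4 genes higher. For 5 fat genes, of which 4 could be tested and all 4 were higher, the sum was 8.70 to 85.4 and 35.9 to 207, and for 5 heart muscle genes, such as those of the pulmonary vein sleeves, it was 5.76 to 518 and 336 to 1061, with 0 genes past this threshold. The summed CPM of the groups overlapped for every marker list, and 0 of the 3 neutrophil and 3 T cell genes passed this threshold. Of 5 lung epithelial markers, 1 was lower, Scgb1a1, the club cell gene (log2 fold change -0.75, unadjusted p = 0.0450 from edgeR), and the sum was 46520 to 82587 and 32736 to 63399. Of 2 endothelial markers, 0 passed, and control 4 had the lowest sum, 379 against 906 to 1622 in the other libraries. The part of tissue composition in the clock gene values was not tested. Controls 2 and 3, which stood at the evening end, had heart muscle sums of 518 and 378 CPM, within the range of the treated mice, and fat sums of 85.4 and 22.9 CPM, of which the second was below every treated mouse. Their red cell sums, 58.0 and 80.7 CPM, and B cell sums, 116 and 122 CPM, were all below every treated mouse. Endothelial sums, 1062 and 999 CPM, lay within the treated range. Epithelial sums were 50448 and 64672 CPM, of which the second was above every treated mouse. T cell sums, 15.7 and 20.0 CPM, and neutrophil sums, 28.1 and 126 CPM, were below every treated mouse for control 2 only.

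The genes outside the 10 whose log2 CPM followed the phase difference most closely over the 8 libraries were sought among 11017 genes with a mean of at least 10 CPM. Highest were Zcrb1 (r = 0.98), Elk4 (0.93), Tpm4 (0.92), Ing1 (0.92) and Cipc (0.92), and lowest were Tmem175 (r = -0.93), Nfil3 (-0.91), Dtx4 (-0.90), Pim1 (-0.90) and Lcmt2 (-0.90). With 8 libraries and this many genes, high values of r arise in number, and no p is given. Cipc encodes a protein that binds CLOCK and restrains it, and it was at 50.4, 62.7, 73.6 and 50.3 CPM in controls 1 to 4 and at 53.9, 51.2, 43.2 and 48.7 CPM in TTI-101 mice 1 to 4. As for Dbp, controls 3 and 2 were its highest libraries and TTI-101 mouse 1 came next. Pim1, a kinase gene known as a target of STAT3, was at 50.1, 37.4, 31.1 and 43.1 CPM in controls 1 to 4 and at 42.5, 62.7, 61.5 and 43.7 CPM in TTI-101 mice 1 to 4, exactly the reverse order of the phase difference (rho = -1).

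Among the listed genes that did not enter the phase difference, those next to the named ones were Hsp90aa1 (r = 0.85), Hsph1 (0.83), Bhlhe41 (0.81), Tspan4 (0.80), Cry2 (0.72) and Hlf (0.70), while Clock was at -0.54 and Cry1 at -0.37. Among the marker genes compared, the red cell and B cell genes had r between -0.50 and -0.30, the fat genes Cfd and Cidec -0.31 and -0.20, and the heart muscle genes between 0.10 and 0.17.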

How the data were processed

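Poly(A) RNA of whole lungs was sequenced from 8 mice, and the authors deposited whole-number counts per gene with no normalization. The submitters' processing notes name STAR, DESeq2 and mm10, while the counting tool, its annotation and its strand setting are not given in the sources used here. Counts were analysed with edgeR 4.0.16 in R 4.3.3 (limma 3.58.1, DESeq2 1.42.0 as alternatives), and correlations with SciPy 1.17.1. filterByExpr with a minimum count of 10 kept 17138 genes, TMM scaled the libraries, and groups were compared by robust quasi-likelihood F-tests with Benjamini-Hochberg adjustment over these genes. Log2 CPM used a prior count of 2. Groups came from the titles in the labels. On simulated data for 17138 genes, edgeR recovered 196 of 200 changed genes with 14 false calls. The simulation gave all genes the same dispersion and used changes larger than those of the clock genes. It checked the code and does not measure power for the clock genes. The alternatives were DESeq2, limma-voom, other scalings, no filter, a replicate block, Xist as a covariate, and each library left out. Genes named from lists other than the 10 clock genes were core clock genes, of which 1 is not reported here, list genes at an unadjusted p under 0.05, and the 5 highest and 5 lowest by r to the phase difference. The clock genes and the lists were chosen with earlier results of these data known. P-values measure the spread between these mice. Per the file headers, other columns hold gene names, positions and lengths.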

Additional observations from a re-analysis of the deposited data

Results flagged for a closer look

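For each of 22 groups of 4 libraries, it was asked whether the lowest or highest library lay farther from its neighbour than Dixon's limit allows, which chance gives in 1.1 of 22 groups. The limit was passed for Tef in the TTI-101 group, where TTI-101 mouse 1, at 206 CPM against 134 to 146 CPM in the other 3 mice, had a gap of 0.838 of the group's range. The same mouse had the highest treated value for 6 of the 8 evening-phase genes.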

How the results depend on the processing

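The 3 clock genes at an unadjusted p under 0.05 became 1 with a replicate block (Arntl), 0 of 9 with Arntl as a covariate, an alternative chosen after seeing the data, and 1 (without control 3) to 5 (without control 1) with each library left out. Of all genes, 1132 of 17138 at this p became 1849 of 31830 with no filter, so this larger count comes with more genes tested. The count was 456 with Arntl as a covariate and 422 (without TTI-101 mouse 3) to 2498 (without TTI-101 mouse 2) with a library left out. It was 2393 without control 1, 531 without control 4 and 711 without TTI-101 mouse 1. At an adjusted p under 0.05, the count of 0 became 4 by DESeq2, 1 with Xist as a covariate and 0 to 1 with a library left out, and for the clock genes it was 0 throughout. With Arntl as a covariate, the log2 fold change turned to 0.083 for Tef, 0.075 for Nr1d1, 0.64 for Ciart and -0.37 for Npas2, and for Dbp, Per2 and Per3 it shrank to -0.015, -0.29 and -0.059. That of Ciart was 0.10 by limma-voom, 0.072 with the replicate block and -0.36 to 0.17 with a library left out, that of Per1 ranged from -0.18 to 0.42 and that of Nr1d1 from -0.24 to 0.054. Of the 9 relations to Arntl, 1 (without control 3) to 6 (without control 4) passed, and r of Per1 ranged from -0.57 to 0.084. The cause of these changes was not tested. In all, 314 of 353 alternative values were counted as kept. Log2 fold changes and r were judged by sign and side of the adjusted p, counts by a fixed ratio, and the phase difference by the spread between mice. Since no clock gene passed an adjusted p of 0.05 in any setting, a log2 fold change counted as kept whenever its sign held. This includes Dbp at -0.015, so the number kept does not measure how stable the sizes were. The phase difference kept its sign in 10 of 10 alternatives. The replicate numbers were not taken to pair the mice, since the labels tie them to no shared litter, batch or day. Same-numbered deviations correlated at 0.393, 0.0822, 0.158 and 0.0707 for numbers 1 to 4, and 2 of 4 libraries correlated best with their own number. Total counts of numbers 1 to 4 were 26873509, 16446481, 18220467 and 16948084 in control and 25920509, 16642630, 17982612 and 16075855 in TTI-101 libraries. These values cannot decide whether the mice were paired. With the replicate block, Per2 had an unadjusted p of 0.0583 from edgeR. With 4 mice a group, differences smaller than the standard errors given could not be resolved.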
